A study of Homo sapiens with 12 samples.

Results

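The genes described here are 10 that build and desaturate fatty acids: ACLY, ACSS2, ACACA, FASN, ELOVL1, ELOVL5, ELOVL6, SCD, FADS1 and FADS2. They were taken by gene symbol from 20045 genes on an Illumina expression array, and all 10 had at least 1 probe (17 probes in all). The list was chosen with earlier results of these data known, so the counts below are not those of a blind choice. RNA came from KMS-11, an established human multiple myeloma cell line in which a translocation places the FGFR3 and NSD2 region beside the immunoglobulin heavy chain locus. All cells were held in 1% serum for 24 h first. The 4 groups of 3 arrays were vehicle (DMSO) for 6 h, NSC12 at 6 µM for 6 h, DMSO for 12 h and NSC12 at 6 µM for 12 h. NSC12 is a compound reported to bind fibroblast growth factors outside the cell and keep them from their receptors. The series covers 1 line, 1 dose and no untreated culture, and the labels leave unsaid whether replicates were separate cultures, so the p-values rest on a sample-to-sample spread that may be purely technical.

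Cells make fatty acids in the cytosol from acetyl-CoA. Citrate exported from mitochondria is split to acetyl-CoA, which is carboxylated to malonyl-CoA and condensed to palmitate; elongases then lengthen the chain and desaturases place double bonds. In liver and in many tumours the transcription factor SREBP-1 drives these genes together, and rapidly dividing cells use the products for membranes.

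The genes that supply and condense acetyl units (ACLY, ACSS2, ACACA, FASN) and the desaturase gene SCD were lower in NSC12 at 12 h. Of the elongases among the 10 genes, only ELOVL1 passed the test on its brightest probe at that time. FADS1 and FADS2 did not pass. At 6 h, 5 of 10 fell (FASN, ACACA, ACLY, ELOVL6 and SCD) and 0 rose, where 7.51% of all 20045 genes were called lower and 5.56% higher. At 12 h, 5 fell (FASN, SCD, ACLY, ACSS2 and ACACA) and 1, ELOVL1, rose, against 15.2% of all genes called lower and 13.6% higher. The median log2 change of the 10 genes was -0.19 at 6 h and -0.34 at 12 h, and that of all genes was -0.001 at both times. Calls are limma tests on quantile-normalized log2 intensities, with p-values adjusted over all genes by the Benjamini-Hochberg method at 0.05. RNA was measured per culture, so fewer transcripts per cell and fewer cells expressing a gene cannot be told apart.

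With each array only centred on its median (log2 scale), 2 members in place of 5 were called lower at 6 h (FASN and ACACA), and at 12 h the same 5 were called lower and 0 higher. Over all genes that scaling changed the share of calls that were higher from 42.5% to 18.8% at 6 h and from 47.3% to 36.3% at 12 h. Array brightness moved with the groups at 6 h: mean intensity per array was 521 ± 153 in DMSO and 428 ± 61.6 in NSC12 (SD, n = 3), with DMSO replicate 3 the dimmest array at 347. At 12 h it was 538 ± 77.3 in DMSO and 588 ± 36.0 in NSC12. Its part in these results was not tested beyond the fit with brightness as a covariate, in which the member counts did not differ from those above.

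The promoters of 3 members are shown because SCD and ACLY fell and ELOVL1 rose. They run from 250 bases before to 50 after the annotated start (RefSeq, GRCh38.p14), 5′ to 3′ on the strand of the gene. Capitals mark CCAAT, the box bound by NF-Y, and GGGCGG, the box bound by Sp1, each on either strand, as factors known to act beside SREBP. A promoter was listed for 9 of the 10 genes, FASN being the exception.

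SCD, chr10:100346983-100347282, plus strand: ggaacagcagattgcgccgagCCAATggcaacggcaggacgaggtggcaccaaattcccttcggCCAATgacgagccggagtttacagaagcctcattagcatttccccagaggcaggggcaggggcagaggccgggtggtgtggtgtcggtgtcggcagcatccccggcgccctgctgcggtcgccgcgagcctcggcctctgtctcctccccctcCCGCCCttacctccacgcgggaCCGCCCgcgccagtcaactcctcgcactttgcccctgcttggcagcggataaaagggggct

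ACLY, chr17:41918973-41919272, minus strand: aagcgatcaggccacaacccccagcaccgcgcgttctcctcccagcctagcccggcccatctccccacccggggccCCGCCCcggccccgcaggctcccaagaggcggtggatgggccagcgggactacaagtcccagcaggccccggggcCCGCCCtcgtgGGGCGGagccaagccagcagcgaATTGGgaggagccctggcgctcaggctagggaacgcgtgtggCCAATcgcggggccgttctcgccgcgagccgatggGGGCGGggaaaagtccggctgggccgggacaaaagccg

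ELOVL1, chr1:43367962-43368261, minus strand: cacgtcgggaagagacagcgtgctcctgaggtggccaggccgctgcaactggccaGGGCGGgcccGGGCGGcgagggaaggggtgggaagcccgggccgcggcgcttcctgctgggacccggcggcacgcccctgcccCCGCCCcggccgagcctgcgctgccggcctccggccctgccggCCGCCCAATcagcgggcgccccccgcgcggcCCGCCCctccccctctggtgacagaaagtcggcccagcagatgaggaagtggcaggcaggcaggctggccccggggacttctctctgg

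In the SCD window the CCAAT boxes begin at -229 and -186, counted from 0 at the start site, and the GGGCGG boxes at -33 and -11. The ACLY window holds 2 CCAAT and 4 GGGCGG boxes, and that of ELOVL1 holds 1 and 5, of which the CCAAT box at -65 overlaps the GGGCGG box at -69. Over the 14 promoter windows of the 9 genes, some of which overlap, 9 held CCAAT and 11 held GGGCGG, where 34.6% and 45.0% of all 35116 windows did. The letters CACCCCAC, the core of the sterol regulatory element, occurred in 0 of the 14 and in 2.79% of all windows, and CACGTG, an E-box, in 1 of the 14 (ELOVL5) and in 7.26% of all. These are matches of letters and not binding sites.

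ACLY and ACSS2 make cytosolic acetyl-CoA, from citrate and from acetate. On its brightest probe ACLY (chromosome 17) was at 12.33, 12.30 and 12.48 in DMSO at 6 h (log2 normalized intensity, replicates 1 to 3) and at 12.06, 11.84 and 12.13 in NSC12. At 12 h the DMSO arrays were at 12.38, 12.31 and 12.25 and the NSC12 arrays at 11.13, 11.30 and 11.21. No NSC12 array reached a DMSO array of the same time, and the gap widened with time. The change was -0.36 ± 0.08 (log2 ± SE; adjusted p = 0.00241) at 6 h and -1.10 ± 0.08 (adjusted p = 3.7e-10) at 12 h, 2.14-fold lower, with 122 of 20045 genes showing a lower change. The 6 h call ended under median centring, at -0.43 (adjusted p = 0.142).

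ACSS2 (chromosome 20), acetyl-CoA synthetase, did not pass at 6 h, when DMSO stood at 9.33, 9.26 and 9.18 and NSC12 at 9.17, 9.13 and 9.18 (-0.10 ± 0.07, adjusted p = 0.483). At 12 h the DMSO arrays were at 9.53, 9.43 and 9.41 and all NSC12 arrays below 9, at 8.86, 8.88 and 8.80. The change there was -0.61 ± 0.07 (adjusted p = 9.09e-07). Averaged over its 4 probes ACSS2 still passed at 12 h, at -0.28.

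ACACA, acetyl-CoA carboxylase, makes malonyl-CoA and is the committed step. Its levels were 10.49, 10.50 and 10.55 in DMSO against 10.08, 9.98 and 10.13 in NSC12 at 6 h, and 10.30, 10.36 and 10.38 against 9.69, 9.86 and 9.76 at 12 h. The groups did not overlap at either time. The log2 changes were -0.45 ± 0.07 (adjusted p = 0.000138) and -0.57 ± 0.07 (adjusted p = 1.97e-06), and their difference of -0.12 ± 0.10 did not pass (adjusted p = 0.561). Averaged over its 3 probes, of which 1 lay below background, ACACA was at -0.30 at 6 h and -0.37 at 12 h and still passed at both times.

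FASN, the multifunctional synthase that condenses malonyl-CoA into palmitate, had the largest change of the 10 genes at both times. Its gene lies on chromosome 17 (82078338 to 82098236, GRCh38.p14), and it had 1 probe. In DMSO it was at 12.97, 13.03 and 13.27 at 6 h and at 13.16, 12.99 and 12.89 at 12 h. In NSC12 it was at 12.43, 12.30 and 12.36 at 6 h and at 11.46, 11.53 and 11.56 at 12 h. All NSC12 arrays lay below all DMSO arrays, and those of 12 h below those of 6 h. The log2 change of FASN was -0.72 ± 0.08 (adjusted p = 7.67e-07), 1.65-fold lower, at 6 h and -1.50 ± 0.08 (adjusted p = 2.78e-12), 2.82-fold lower, at 12 h. Only 13 of the 20045 genes had a lower log2 change at 12 h. In the deposited intensities, before any normalization, FASN went from 7901, 9517 and 8054 in DMSO to 3368, 3260 and 3805 in NSC12 at 12 h, so the groups were apart before scaling too. These values lie below the brightest probes of the arrays, which reached 13966 to 25534.

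**Figure D1:**
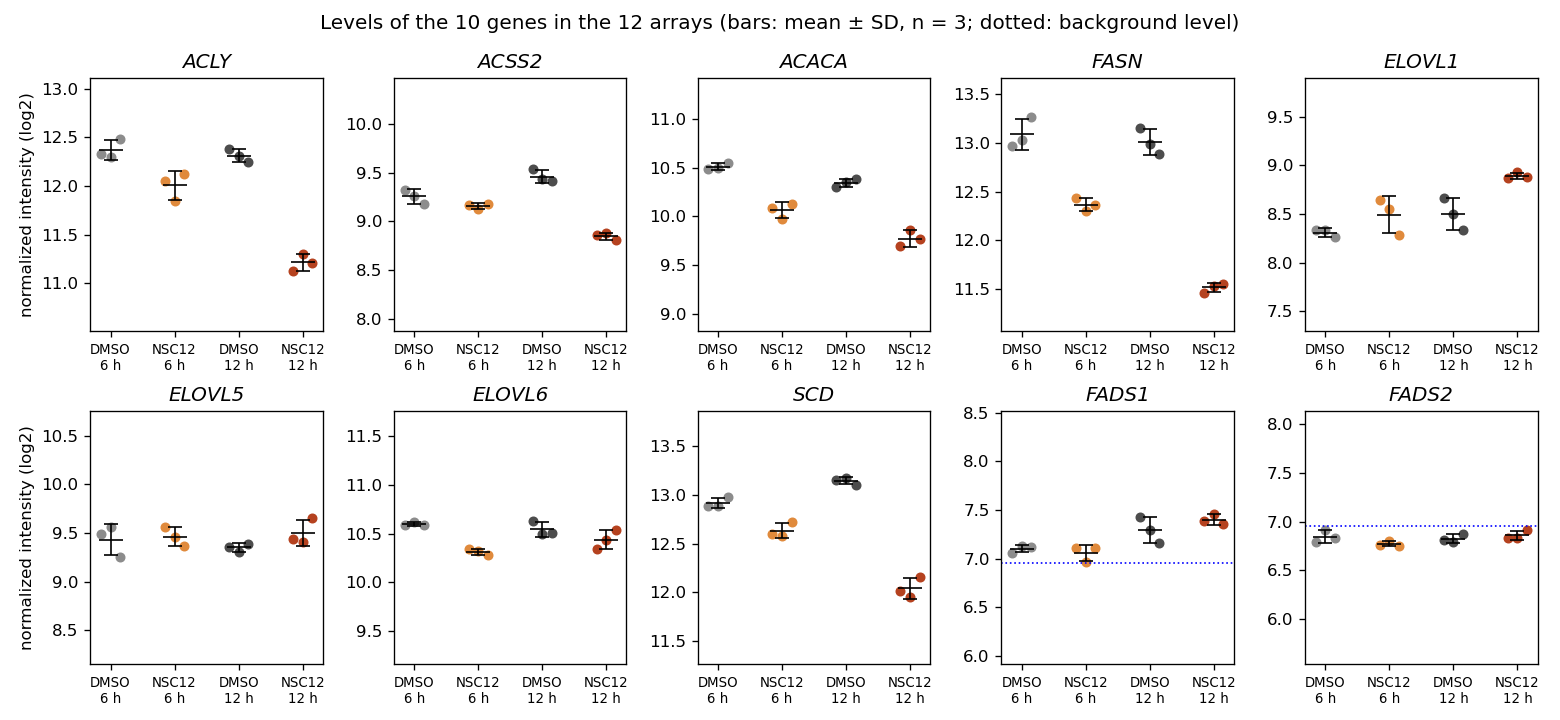
Log2 normalized intensity of the brightest probe of each of the 10 genes (vertical axes, each spanning the same range of log2 units) in DMSO and NSC12 at 6 h and 12 h; points are arrays, bars the mean ± SD of 3, and the dotted line the background level. FASN, ACLY and SCD are lowest in NSC12 at 12 h, while FADS2 stays under the dotted line in every array.

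The elongases did not move together. ELOVL1, which extends long saturated and monounsaturated chains, was at 8.34, 8.33 and 8.26 in DMSO and 8.65, 8.55 and 8.28 in NSC12 at 6 h, where the groups overlap (0.18 ± 0.10, adjusted p = 0.251). At 12 h it was at 8.67, 8.50 and 8.34 in DMSO and 8.87, 8.93 and 8.88 in NSC12, and it rose by 0.39 ± 0.10 (adjusted p = 0.00269), 1.31-fold. Under median centring the rise was 0.25 and did not pass (adjusted p = 0.251). ELOVL5, which extends polyunsaturated chains, did not pass at 6 h (0.03 ± 0.09, adjusted p = 0.903) or at 12 h (0.15 ± 0.09, adjusted p = 0.272); its arrays ranged from 9.25 to 9.65 over all groups. ELOVL6 extends palmitate to stearate. On its brightest probe it was at 10.59, 10.62 and 10.59 in DMSO and 10.34, 10.32 and 10.28 in NSC12 at 6 h, a fall of -0.29 ± 0.07 (adjusted p = 0.0083). At 12 h the groups overlapped, with 10.63, 10.50 and 10.50 against 10.35, 10.43 and 10.53 (-0.11 ± 0.07, adjusted p = 0.339). The 6 h call of ELOVL6 ended under median centring (-0.42, adjusted p = 0.175) and when its probes were averaged (-0.20, adjusted p = 0.0617).

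SCD, stearoyl-CoA desaturase (chromosome 10), places the first double bond in saturated chains and so makes oleate. It was at 12.88, 12.89 and 12.98 in DMSO and 12.60, 12.58 and 12.72 in NSC12 at 6 h. At 12 h it stood at 13.16, 13.18 and 13.11 in DMSO and 12.01, 11.96 and 12.16 in NSC12. The groups were apart at both times, the later ones by far more. The log2 change of SCD was -0.28 ± 0.06 (adjusted p = 0.00393) at 6 h and -1.10 ± 0.06 (adjusted p = 1.72e-11), 2.15-fold lower, at 12 h. The call at 6 h ended under median centring, at -0.34 (adjusted p = 0.253). The deposited intensities of SCD overlapped at 6 h (5000 to 9414 in DMSO, 4273 to 6515 in NSC12) and not at 12 h (7903 to 10623 against 4546 to 5998).

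FADS1 and FADS2, neighbouring genes on chromosome 11, encode the front-end desaturases that make polyunsaturated fatty acids. FADS1 was dim: its group means ran from 7.06 ± 0.08 (NSC12, 6 h) to 7.40 ± 0.05 (NSC12, 12 h), just above the background level of 6.96, the 95th percentile of olfactory receptor genes. It did not pass at 6 h (-0.04 ± 0.08) or at 12 h (0.11 ± 0.08, adjusted p = 0.338). FADS2 lay below background in all 4 groups (6.78 to 6.86), and its changes of -0.07 ± 0.05 and 0.03 ± 0.05 are differences between dim signals.

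**Figure D2:**
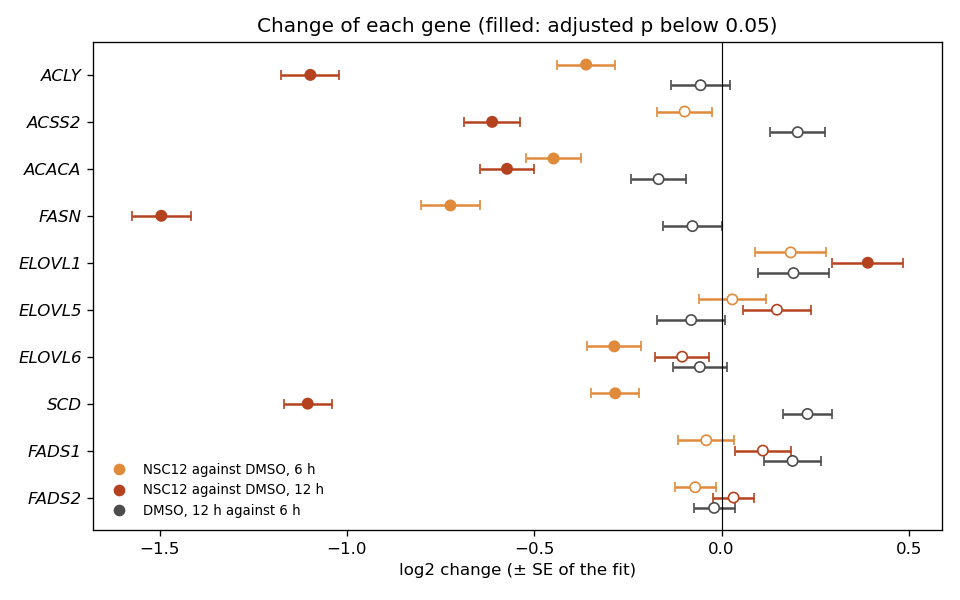
Log2 change (horizontal axis, ± SE of the fit) of each of the 10 genes in NSC12 against DMSO at 6 h and 12 h, and in DMSO at 12 h against 6 h; filled points passed the adjusted test and open points did not. FASN reaches -1.50 and ACLY and SCD -1.10 at 12 h, with ELOVL1 on the other side of 0.

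Whether the effect of NSC12 differed between the times was tested as an interaction. It was more negative at 12 h for 4 of 10 members: SCD (-0.82 ± 0.09, adjusted p = 7.98e-06), FASN (-0.77 ± 0.11, adjusted p = 0.000121), ACLY (-0.74 ± 0.11, adjusted p = 0.000178) and ACSS2 (-0.51 ± 0.10, adjusted p = 0.00251). It was more positive for 0, and over all genes 5.77% were called more negative and 4.66% more positive. Under median centring 0 of 10 passed, with values of -0.53, -0.56, -0.57 and -0.49 in the same order, and the share of all calls that were more positive went from 44.7% to 76.1%.

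Vehicle cultures in low serum gave a reference for drift over the same interval. Between 6 h and 12 h of DMSO, 0 of 10 members passed in limma, where 0.15% of all genes were called lower and 0.249% higher. Without adjustment 4 members had a limma p under 0.05, and the share of all genes under that value was not counted. SCD showed the largest difference, 0.23 ± 0.06 (adjusted p = 0.154), which passed with array weights (adjusted p = 0.0301), followed by ACSS2 (0.20 ± 0.07). This contrast shares the DMSO arrays with those above. FASN (-0.08 ± 0.08) and ACLY (-0.06 ± 0.08) stood close to 0.

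Of the members, 4 have several probes, which allowed a look at agreement within a gene, with p-values adjusted over all 47319 probes. Both ACLY probes fell at both times, the second by -0.33 and -1.05, and so did the bright pair of ACACA probes, the second by -0.39 and -0.59; the dimmest ACACA probe lay below background. In that fit 4.11% of probes were called lower at 6 h and 9.44% at 12 h. The bright ACSS2 probes fell at 12 h by -0.61 and -0.67, another, at 7.31 in DMSO and 7.44 in NSC12 at 12 h, did not pass (0.13), and the dimmest was below background. The probes of ELOVL6 disagreed too: the brightest passed at 6 h only, and the other did not pass at 6 h (-0.11, adjusted p = 0.623) but fell at 12 h (-0.41 ± 0.09, adjusted p = 0.00164). As the mean of both probes ELOVL6 passed at 12 h (-0.26, adjusted p = 0.00621) and not at 6 h.

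**Figure D3:**
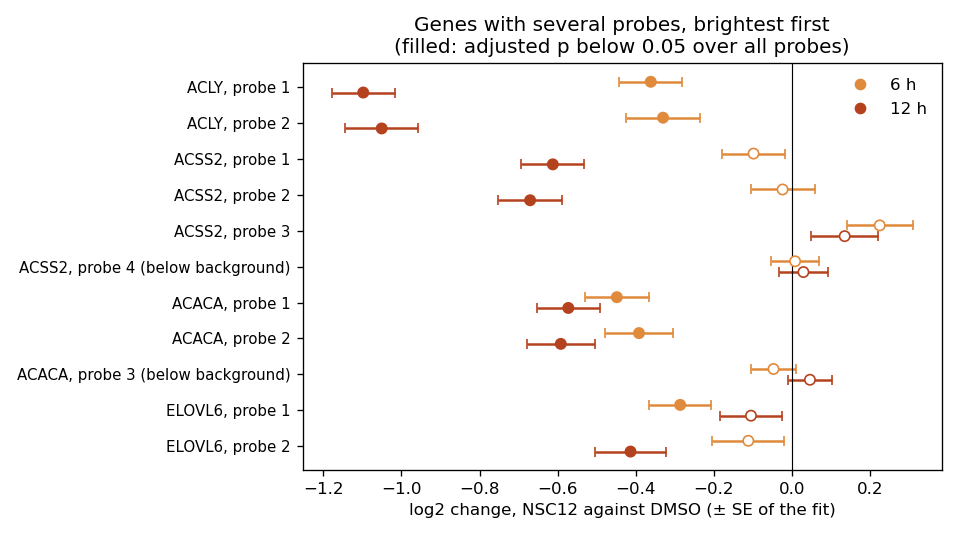
Log2 change in NSC12 against DMSO (horizontal axis, ± SE) for each probe of the 4 genes with several probes, ordered by brightness; filled points passed adjustment over all probes. The bright probes of ACLY, ACACA and ACSS2 lie together, and those of ELOVL6 trade places between 6 h and 12 h.

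The regulators of these genes were examined from a list of 13, of which 12 were measured. At 6 h 1 fell and 1 rose, and at 12 h 4 fell and 0 rose. Beside this list and those below stand the shares over all genes: 7.51% lower and 5.56% higher at 6 h, 15.2% and 13.6% at 12 h. The lists are short, and their counts were not tested against those shares. SREBF1, which encodes SREBP-1, did not pass at 6 h (0.17 ± 0.09, adjusted p = 0.289) or at 12 h (0.18 ± 0.09, adjusted p = 0.169), although at 12 h it was called higher without DMSO 12 h replicate 1 (0.30, adjusted p = 0.0077), without the dimmest array of both DMSO groups (0.31, adjusted p = 0.00532) and with array weights (0.24, adjusted p = 0.023). SREBF2 was at 0.10 ± 0.10 and -0.02 ± 0.10. Some of the genes that carry and cut SREBP passed. SCAP, the escort that moves SREBP out of the endoplasmic reticulum, was at -0.36 at 6 h, which did not pass under median centring (-0.51, adjusted p = 0.0553), and at -0.78 ± 0.08 at 12 h, and MBTPS1, the protease that makes the first cut, fell by 0.55 at 12 h. MBTPS2, the protease that makes the next cut, named here after its values were seen, did not pass at 6 h (-0.11, adjusted p = 0.382) or at 12 h (-0.17, adjusted p = 0.0791). INSIG1, which retains SCAP and is itself an SREBP target, changed in opposite directions against DMSO at the 2 times. At 6 h it was at 12.64 ± 0.13 in DMSO and 12.97 ± 0.06 in NSC12 (0.33 ± 0.08, adjusted p = 0.00703). At 12 h it was at 12.34 ± 0.15 in NSC12, lower than DMSO of that time (-0.66 ± 0.08). DMSO itself was higher at 12 h than at 6 h by 0.36 ± 0.08, which did not pass (adjusted p = 0.0522). The NSC12 effect on INSIG1 at 12 h minus that at 6 h was -0.99 ± 0.11, which includes this movement of DMSO. Under median centring that difference was -0.72 and did not pass (adjusted p = 0.0823). Leaving out DMSO 6 h replicate 3 ended the call of the 6 h rise (0.26, adjusted p = 0.0587), as did median centring (0.29, adjusted p = 0.387), and the second INSIG1 probe gave 0.53 (adjusted p = 0.013) at 6 h and -0.25 (adjusted p = 0.258) at 12 h. INSIG2, a related retention protein, fell by 0.61 at 12 h.

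Most genes that feed the pathway were lower at 12 h. Of 9 measured genes for citrate, acetyl-CoA and NADPH supply, 3 fell at 6 h and 6 at 12 h, and 0 rose at either time, with list medians of -0.17 and -0.49. Among all genes 7.51% were called lower at 6 h and 15.2% at 12 h, and 5.56% and 13.6% higher. ACSS1, the mitochondrial acetyl-CoA synthetase, fell by 0.53 and 0.75; IDH1, which makes cytosolic NADPH, by 0.53 and 0.61; and CS, citrate synthase, by 0.31 and 0.51. The CS calls ended under median centring (-0.36, adjusted p = 0.208, and -0.27, adjusted p = 0.287). PGD, of the pentose phosphate pathway, fell by 0.62 at 12 h.

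Among 16 other elongases, desaturases and chain-building enzymes, 2 fell and 0 rose at 6 h, and 4 fell and 2 rose at 12 h (median -0.01). The shares of all genes were 7.51% lower and 5.56% higher at 6 h, and 15.2% and 13.6% at 12 h. CBR4, of mitochondrial fatty acid synthesis, fell by 0.43 at 6 h and 0.73 at 12 h. HACD3, a dehydratase of the elongation cycle, fell by 0.63 and 0.57 on its brightest probe, and its other probes passed at neither time. At 12 h the mean of the HACD3 probes did not pass (-0.29, adjusted p = 0.0642). HACD4, of the same family, rose by 0.46 at 12 h, which did not pass under median centring (0.36, adjusted p = 0.103). The elongases ELOVL4 and ELOVL2 are named here after their values were seen. At 12 h ELOVL4 was lower (-0.39, adjusted p = 0.00093). ELOVL2 was higher (0.24, adjusted p = 0.0319) but dim, at 6.96 in DMSO and 7.19 in NSC12. Neither was followed through the alternatives. SCD5, the second stearoyl-CoA desaturase of human cells, fell by 0.52 at 12 h on its brightest probe, and its other probe above background gave 0.03.

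Steps downstream gave mixed counts, beside 7.51% of all genes lower and 5.56% higher at 6 h, and 15.2% and 13.6% at 12 h. Of 14 genes of glycerolipid synthesis, 6 fell and 1 rose at 12 h (1 and 1 at 6 h), led by AGPAT5, which acylates lysophosphatidic acid (-1.20 ± 0.12, 2.30-fold lower), and DGAT2, of triglyceride synthesis (-0.53). AGPAT5 also fell at 6 h (-0.42, adjusted p = 0.0189), a call kept under 15 of the 19 alternatives. At 12 h LPIN2, a phosphatidate phosphatase, was at -0.45 and GPAM, which starts glycerolipid synthesis, at -0.42 on its brighter probe and -0.13 on the other. Of 8 genes of fatty acid activation and binding, 1 fell and 1 rose at 6 h, and 2 fell and 0 rose at 12 h, with ACSF3 at -0.36 and ACSL1 at -0.26. ACSL1 was the faller at 6 h (-0.32, adjusted p = 0.00939), a call lost without DMSO 6 h replicate 2. The ACSL1 call at 12 h was lost without DMSO 12 h replicate 2 (-0.23) and without NSC12 12 h replicate 1 (-0.22) or 2 (-0.24). ACOT7, a thioesterase, was the riser at 6 h (0.25, adjusted p = 0.0376), a call lost under 10 of the 19 alternatives. Of 9 uptake genes 5 lay above background, and at 12 h SLC27A5 was higher (0.48; 0.43 under median centring, adjusted p = 0.0715) and SLC27A2 lower (-0.34); 0 passed at 6 h.

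Genes of fatty acid oxidation were called in both directions. Of 18 measured, 2 fell and 1 rose at 6 h, where 7.51% of all genes were called lower and 5.56% higher. At 12 h 9 fell and 3 rose (median -0.19), against 15.2% and 13.6% of all genes. CPT2, the inner membrane carnitine palmitoyltransferase, fell by 0.73 at 6 h and by 0.98 ± 0.08 at 12 h, and ACAA2, the last enzyme of mitochondrial beta-oxidation, by 0.48 and 0.84. HADH and ETFDH, both of mitochondrial oxidation, fell by 0.45 and 0.44 at 12 h; HADH did not pass under median centring (-0.34, adjusted p = 0.187). CPT1A, which admits fatty acids to mitochondria, was higher at 12 h (0.22 ± 0.08, adjusted p = 0.0332), but -0.13 and -0.08 were measured on its other probes, and averaged over probes it was at 0.0059 (adjusted p = 0.961). The other risers are named here after their values were seen. CPT1B was at 0.32 (adjusted p = 0.0242) at 6 h and 0.34 (adjusted p = 0.00732) at 12 h, and ACADM at 0.31 (adjusted p = 0.00324) at 12 h. Neither was followed through the alternatives.

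The kinase AMPK phosphorylates and inhibits the ACACA protein. Of 9 genes for its subunits and activators, 2 fell and 1 rose at 6 h, where 7.51% of all genes were called lower and 5.56% higher. At 12 h 2 fell and 2 rose, against 15.2% and 13.6% of all genes. The regulatory beta subunits of AMPK went opposite ways: PRKAB1 rose by 0.35 and 0.66 at 6 h and 12 h, and PRKAB2 fell by 0.72 and 0.35. PRKAB1 at 6 h did not pass under median centring (0.21, adjusted p = 0.536). PRKAA1, a catalytic subunit, fell by 0.41 at 6 h, and PRKAG2, a gamma subunit, by 0.32 at 12 h on the brightest of 4 probes, a call lost when probes were averaged (-0.14) and without NSC12 12 h replicate 2 (-0.22).

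**Figure D4:**
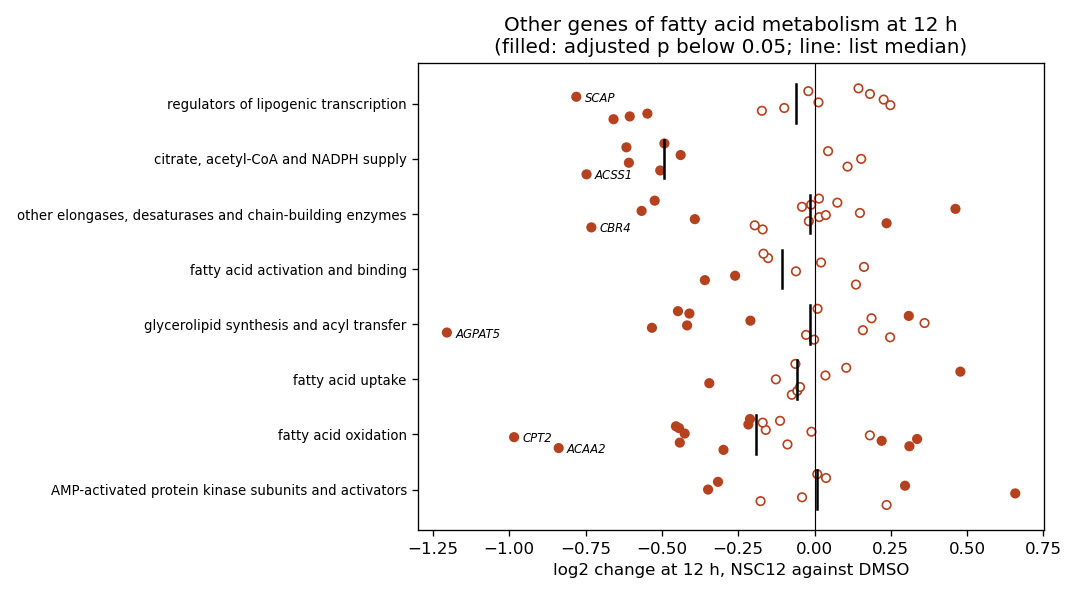
Log2 change in NSC12 against DMSO at 12 h (horizontal axis) for each measured gene of 8 lists of fatty acid metabolism; filled points passed the adjusted test, open points did not, and black lines are list medians. The supply list has the lowest median, -0.49, and AGPAT5 the lowest single value, -1.20.

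Genes with the profile most like that of FASN were sought among 12635 genes above background, by the root mean square difference of centred log2 levels over the 12 arrays. The 5 nearest were HNRNPAB, SURF4, ESYT1, VCP and EIF3B (0.089 to 0.114 log2 units), and the nearest member was ACLY in place 51 (0.20), followed by SCD in place 157. For SCD the 5 nearest were SPPL2A, PSAP, ATXN7L3B, IFNAR1 and TIMP2 (0.070 to 0.091), with ACLY in place 140 and FASN in place 1257. These places are among 12634 other genes, nearly all of them not members, so closer neighbours outside the list say little about the members.

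The label of the line was checked with marker genes. All 9 plasma cell and myeloma markers lay above background in at least 1 group, with XBP1 at 13.16 and FGFR3 at 13.89 in DMSO at 6 h. CD38 stood about at the background level of 6.96: 6.92 and 6.96 in DMSO and 7.05 and 6.93 in NSC12, at 6 h and 12 h. SLAMF7 was also dim, at 7.10 and 7.06 in DMSO and 6.96 and 7.27 in NSC12. At 6 h 2 of the 9 were called lower and 1, IRF4, higher (0.33, adjusted p = 0.00565), where 7.51% and 5.56% of all genes were. At 12 h 5 of the 9, IRF4 (-0.40) among them, were called lower and 0 higher on their brightest probes, where 15.2% and 13.6% of all genes were. PRDM1, counted as lower (-0.98), also had probes that were higher (0.66, adjusted p = 1.02e-05, and 0.37, adjusted p = 0.0118), so its direction depends on the probe. Adipocytes are rich in the same lipid enzymes: of 6 adipocyte markers 4 were above background, ADIPOQ and PLIN1 were not, and the summed intensity of the list was 847 to 905 and 897 to 1010 in DMSO and 804 to 815 and 974 to 1124 in NSC12, at 6 h and 12 h. LEP carried that movement (-0.49 at 6 h and 0.37 at 12 h), on 1 of 2 probes. T and NK cell, myeloid, and stromal and endothelial lists had 2, 4 and 3 of 6 genes above background, all in the dim range up to 7.62. Of these, DCN was higher (0.31, adjusted p = 0.000799), FCGR3A higher (0.29, adjusted p = 0.0352) and PDGFRB lower (-0.29, adjusted p = 0.00811) at 12 h, and 0 passed at 6 h. Other probes differed at 12 h: DCN gave -0.14 (adjusted p = 0.0327 over all probes), 0.05 and 0.004, all below background. The other FCGR3A probe, above background, gave -0.02. The part of these markers in the results was not tested.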

How the data were processed

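Total RNA of KMS-11 cells was labelled as biotinylated cRNA for Illumina arrays, per the labels' protocols. The authors deposited 1 linear intensity per probe and array (69.5 to 25534). The labels do not state scanner software, background correction or normalization; array means differed (347 to 634), and with no value below 69.5 the changes of dim genes may be understated. The number of arrays limits the precision. Of 47319 probes, the platform annotation gave 1 symbol to 30111, several to 8 and none to 17200. Of those with 1 symbol, 30072 matched a RefSeq gene (GRCh38.p14), whose symbol was used.

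Here a floor of 16 (reached by no value) was set, intensities were quantile normalized and taken to log2, and each gene was represented by the probe of highest mean over the 12 arrays. limma 3.58.1 (R 4.3.3) fitted 1 mean per group over all 12 arrays with an intensity trend in the variance. Levels are means ± SD of 3 arrays and changes carry the SE of the fit. The background level, 6.96, is the value under which 95% of 371 olfactory receptor genes lay. A gene or probe counted as above background when its highest group mean exceeded that level. Replicate numbers recur across groups, but same-numbered arrays did not deviate together (correlations of deviations from -0.47 to 0.18 over 18 pairs), so they were not taken as pairs.

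All 10 members are named. From each other list the text names up to 4 genes with the largest changes among those called at 6 h or 12 h and above background, and SREBF1, SREBF2, INSIG1 and CPT1A whatever their values. For the lists of fatty acid metabolism, values of the named genes are given at the times at which they passed. Members, lists and tests were chosen with earlier results of these data known. Alternatives were other scalings and background corrections, other uses of probes, filters and variance models, array brightness, the replicate number as a block, and leaving out arrays. Figures were drawn with matplotlib 3.10.9. No pair of arrays held identical values (0 pairs).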

Additional observations from a re-analysis of the deposited data

Results flagged for a closer look

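The effect of NSC12 differed between 6 h and 12 h for 4 of the 10 genes, by the interaction term of limma adjusted over all genes. The effect at 12 h minus that at 6 h was -0.82 for SCD (adjusted p = 7.98e-06), -0.77 for FASN (adjusted p = 0.000121), -0.74 for ACLY (adjusted p = 0.000178) and -0.51 for ACSS2 (adjusted p = 0.00251), in log2 units. For each of them the value kept its sign under all 24 alternatives and passed under 23, median centring being the exception. Under that scaling 87 of all 20045 genes were called more negative, in place of 1157. Groups of 3 arrays are too small for the test of single outlying arrays.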

How the results depend on the processing

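Of the recomputed counts of members, 158 stayed within 1.5 times the reported one and 4 did not. The exceptions were median centring, with 2 lower at 6 h, 0 higher at 12 h and 0 more negative for the difference between times, and array weights, with 1 higher (SCD) in DMSO over time. The replicate block gave 5 lower at 6 h and 5 lower and 1 higher at 12 h, so no count of members differed; replicate numbers did not pair the arrays. FASN and ACACA at both times and ACLY, SCD and ACSS2 at 12 h passed under every alternative run, 19 for each; FASN ranged from -0.79 to -0.63 at 6 h and from -1.56 to -1.34 at 12 h, SCD from -1.16 to -0.87 and ACLY from -1.13 to -0.996 at 12 h. Under median centring ACLY, ELOVL6 and SCD lost their 6 h calls and ELOVL1 its 12 h call, as stated with each gene. Why this scaling differs was not tested. Signs turned for values that passed in neither setting. Under median centring these were ELOVL5 at 6 h (-0.150), SREBF1 at 6 h (-0.00814) and, in DMSO over time, ACLY (0.0522), FASN (0.0274) and ELOVL6 (0.0232). FADS1 at 6 h became 0.0053 with cyclic loess, and with probes averaged ACSS2 at 6 h was 0.0275 and the ELOVL6 difference between times -0.0602. With array weights ELOVL5 at 6 h was -0.0103 and SREBF2 at 12 h 0.0516. With brightness in the model SREBF2 at 12 h was 0.0036. Leaving the dimmest array out of both DMSO groups, an alternative chosen after seeing the data, gave 0.0337 for it and -0.0641 for ELOVL5 at 6 h. Leaving out 1 array gave ELOVL5 -0.0639 to 0.0917 and FADS1 -0.0649 to 0.00671 at 6 h, SREBF2 -0.127 to 0.0353 at 12 h, and in DMSO over time ACLY -0.0922 to 0.00142, FASN -0.151 to 0.0127 and FADS2 -0.0471 to 0.0164. In DMSO over time 62.5% of all calls were higher, against 92.9% under median centring and 76.5% with cyclic loess. FADS2, below background, has no value in the fit of genes above it, and a fit of only the groups compared holds all 4 groups for the difference between times.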
